A study of Mus musculus with 8 samples.

Results

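The genes described here encode the proteasome, its activators and the chaperones that assemble it. They were chosen by name: every row whose gene symbol began with Psma, Psmb, Psmc, Psmd, Psme or Psmg and which reached 1 FPKM (fragments scaled to the length of the transcript and to the size of the library) in at least 2 of the 8 libraries. That left 46 genes of the 9782 rows that passed the same filter, out of 48 rows with such a name. The 8 libraries were made from CD8+ T cells of BALB/c mice that bound the AH1 tetramer. AH1 is a class I peptide from the envelope protein of an endogenous leukaemia virus, and tumours of BALB/c origin present it. Each group held 2 libraries: term-diff cells with the Cd69 knockout (Cd69-/-), wild-type term-diff cells, Cd69-/- stem-like cells and wild-type stem-like cells, where term-diff and stem-like are the sorted subsets named in the labels. The tumour, the gates of the sort, the kind of knockout, the age of the mice and any treatment are not given in the sources used here. Nothing in the labels says whether the 2 libraries of a group came from separate mice, so p-values measure only the spread between these libraries, which may be technical. In RNA from sorted bulk cells, fewer cells of a type and less RNA per cell cannot be told apart.

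The proteasome degrades ubiquitin-tagged proteins. Its core particle, called 20S, is a barrel whose outer rings are built of alpha subunits (Psma genes) and whose inner rings are built of beta subunits (Psmb genes). The constitutive catalytic beta subunits are Psmb5, Psmb6 and Psmb7. Interferon-gamma induces Psmb8, Psmb9 and Psmb10, which take their places in the immunoproteasome and favour peptides that bind MHC class I, and lymphocytes carry this form in the absence of infection as well. A 19S cap of ATPases (Psmc genes) and non-ATPase subunits (Psmd genes) recognises, unfolds and feeds in substrates. PA28 (Psme1 and Psme2), Psme3 and Psme4 are other activators that dock on the barrel, and Psmg1 to Psmg4 are chaperones of its assembly.

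The promoter windows of 4 genes are shown. Psmb8, Psmb9 and Psme1 are among the 5 interferon-inducible genes that the constitutive subunits are set against. Psmg4 is one of the 4 genes that passed the test below. Each window spans 250 bases before and 30 after the annotated start and was taken from RefSeq on GRCm38.p6, the patch series of the mm10 build that the files use. Capitals mark matches to GAAA, any 2 bases and GAAA (the interferon-stimulated response element, ISRE), TTCNNNGAA (the gamma-interferon activation site, GAS) or CCAAT (bound by NF-Y), searched on both strands.
Psmb8, chr17:34197945-34198224, plus strand: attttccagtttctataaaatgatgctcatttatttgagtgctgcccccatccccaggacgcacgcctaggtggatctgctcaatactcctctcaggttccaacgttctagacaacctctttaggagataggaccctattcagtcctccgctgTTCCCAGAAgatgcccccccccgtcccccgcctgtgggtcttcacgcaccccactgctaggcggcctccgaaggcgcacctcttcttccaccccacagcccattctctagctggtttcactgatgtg
Psmb9, chr17:34187301-34187580, minus strand: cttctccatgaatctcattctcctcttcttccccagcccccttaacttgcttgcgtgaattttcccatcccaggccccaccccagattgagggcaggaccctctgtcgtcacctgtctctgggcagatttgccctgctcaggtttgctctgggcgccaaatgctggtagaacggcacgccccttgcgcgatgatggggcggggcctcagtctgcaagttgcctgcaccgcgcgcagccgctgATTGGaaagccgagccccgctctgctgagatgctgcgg
Psme1, chr14:55578244-55578523, plus strand: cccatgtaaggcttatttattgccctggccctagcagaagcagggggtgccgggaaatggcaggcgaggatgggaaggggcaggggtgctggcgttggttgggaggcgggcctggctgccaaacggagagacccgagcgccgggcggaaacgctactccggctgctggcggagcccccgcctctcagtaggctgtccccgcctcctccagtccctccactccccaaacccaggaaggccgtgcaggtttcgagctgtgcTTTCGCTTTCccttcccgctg
Psmg4, chr13:34162714-34162993, plus strand: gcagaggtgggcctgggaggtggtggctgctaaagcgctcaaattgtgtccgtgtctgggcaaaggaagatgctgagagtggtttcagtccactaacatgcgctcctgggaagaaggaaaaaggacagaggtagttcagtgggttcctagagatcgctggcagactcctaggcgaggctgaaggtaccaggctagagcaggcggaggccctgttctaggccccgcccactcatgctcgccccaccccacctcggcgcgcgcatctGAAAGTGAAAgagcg
Psmb8 held a GAS match 97 to 89 bases before its start, Psme1 an ISRE match 10 to 19 bases after it and Psmg4 an ISRE match 16 to 25 bases after it. In Psmb9 the capitals mark a reversed CCAAT box, and its window shared 275 bases with the window of Tap1 (the peptide transporter of class I loading), which runs the other way. Of the 46 genes, 39 had a window, and these had 42 windows in all. ISRE matches stood in 5 of the 42 windows, or 11.9%, those of Psmb3, Psmd4, Psmd9, Psme1 and Psmg4, against 3.28% of all 32851 windows. GAS matches stood in 7.14%, those of Psmb8, Psmd2 and Psmg1, against 7.83% of all. The interferon-inducible genes Psmb9, Psmb10 and Psme2 are in neither list. The other letters searched were CCAAT (33.33% against 36.09%), TGANNNNGC (the core of the antioxidant response element, which NRF1 and NRF2 bind; 52.38% against 39.1%) and GGGA, any 4 bases and CC (an NF-kB form; 23.81% against 19.38%). In Psmg4 the TGANNNNGC match at bases 21 to 29 overlapped the ISRE match. These matches describe letters in a window and are not evidence of binding.

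The depth was low for single genes. The confidence limits of the deposited FPKM implied 2055411 to 2591061 fragments per library, and 26 to 42 of these fell on Psmg4, 43 to 96 on Psmb2, 86 to 149 on Psmb4, 169 to 348 on Psmc3 and 654 to 1123 on Psmb8. Genes of small RNA held 54.9% to 83.9% of the FPKM sum of a library, lowest in the second wild-type library of each subset (54.9% in term-diff and 62.4% in stem-like cells, against at least 77.1% in the other 6). Cd69, the knocked-out gene, fitted its labels: it had 2.21 and 2.43 FPKM in Cd69-/- term-diff cells, against 10.4 and 12.9 in wild-type term-diff cells, and 3.69 and 2.42 in Cd69-/- stem-like cells, against 22.5 and 23.4 in wild-type stem-like cells. All 8 CD8 T cell markers passed the filter, with summed levels of 969 to 1460 FPKM, while the B cell markers summed to 0.132 to 0.889 FPKM. Of 9 myeloid markers with a row, Cd68 and Lyz2 passed, and the sums were 3.32 and 5.10 FPKM in Cd69-/- term-diff cells, 2.52 and 5.28 in wild-type term-diff cells, 8.04 and 8.60 in Cd69-/- stem-like cells and 5.18 and 6.46 in wild-type stem-like cells. Myeloid and dendritic cells also carry immunoproteasome subunits. The part of the sums of these other cell types in the values below was not tested.

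Transcripts of nearly the whole proteasome were present in every group, and 3 of the 5 interferon-inducible genes stood highest, while Psmb9 averaged 32.8 FPKM and Psmb10 12.1 FPKM. Psme1, the alpha chain of PA28, averaged 168 FPKM over the 8 libraries, above 98.05% of the 9696 genes ranked, and Psmb8 averaged 104 FPKM, above 97.31%. Psme2, the beta chain of PA28, averaged 51.5 FPKM. Among the constitutive genes the highest were Psma4 of the alpha ring (50.4 FPKM), the ubiquitin receptor Psmd4 of the cap (44.7 FPKM) and Psmb1 of the beta ring (38.9 FPKM).

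**Figure D1:**
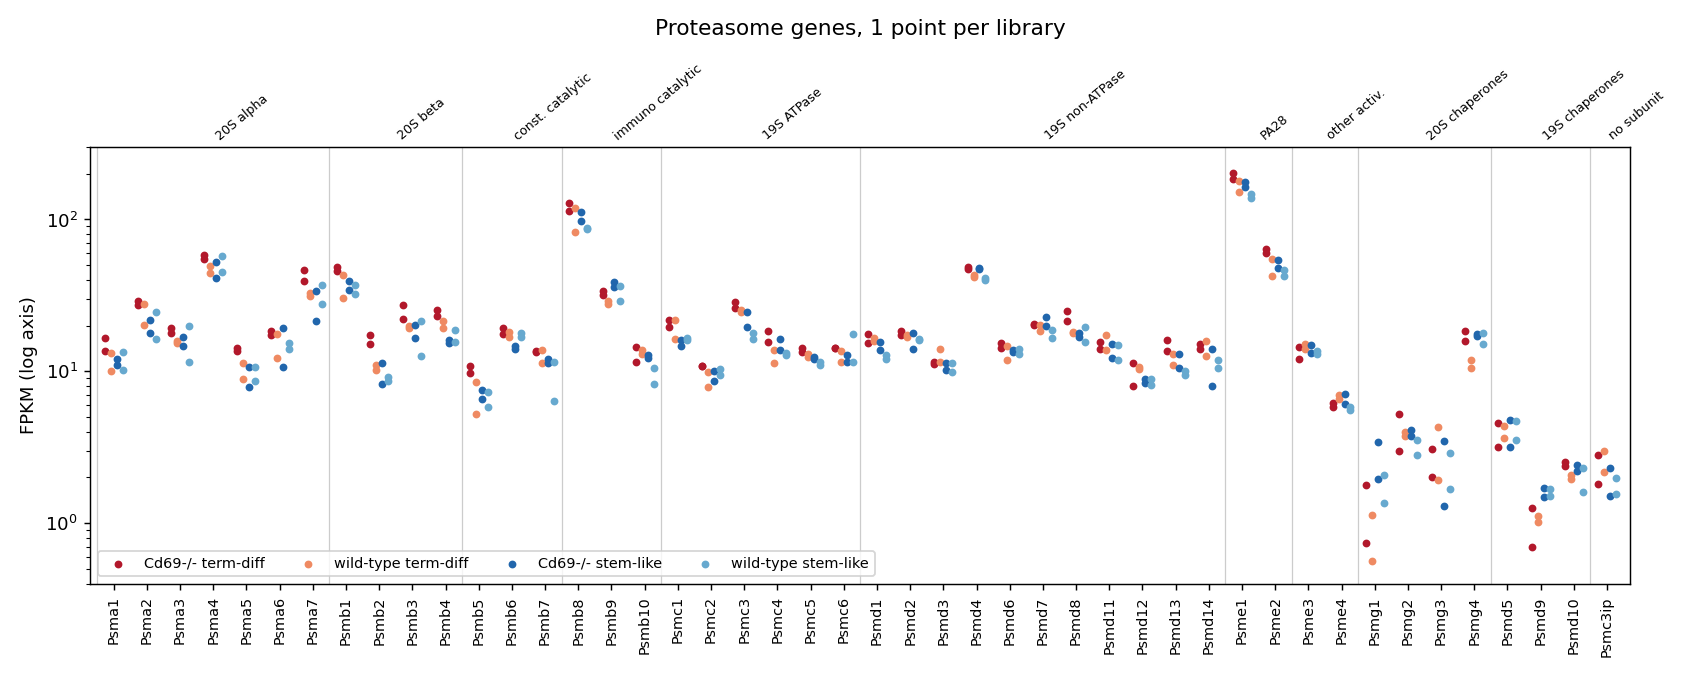
FPKM (log axis) of the 46 genes, grouped by role, with 1 point per library and the 4 groups in 4 colours. Psme1 and Psmb8 stand highest, at 83.0 FPKM or more in every library, and the chaperones other than Psmg4, with Psmc3ip, stand lowest, under 6 FPKM in every library.

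Mean levels differed within each role. The 7 alpha subunits averaged 10.7 FPKM (Psma5) to 50.4 FPKM (Psma4), and the 4 non-catalytic beta subunits 11.4 (Psmb2) to 38.9 FPKM (Psmb1). The 6 ATPases lay between 9.75 FPKM (Psmc2) and 22.9 FPKM (Psmc3), and the 11 non-ATPase subunits between 9.33 FPKM (Psmd12) and 44.7 FPKM (Psmd4). Levels in FPKM are per length of transcript, so subunits that stand in equal numbers in the complex did not have equal RNA levels. Psme3, a nuclear activator, averaged 13.8 FPKM and Psme4 6.27 FPKM. Of the chaperones of the core, Psmg4 averaged 15.5 FPKM and Psmg1 1.63 FPKM, and of those of the cap, Psmd5 averaged 3.99 FPKM and Psmd9 1.31 FPKM.

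The weakest genes were at the edge of the choice. Psmg1 reached 1 FPKM in 6 of 8 libraries, with a range of 0.562 to 3.42 FPKM, and Psmd9 in 7 of 8, with a range of 0.694 to 1.70 FPKM. Both genes outside the threshold belong to tissue-restricted proteasomes: Psma8, the alpha subunit of testis, reached at most 0.147 FPKM, and Psmb11, the catalytic subunit of thymic epithelium, at most 0.164 FPKM. Psmc3ip shares the prefix but is a factor of meiotic recombination and no subunit. It ranged from 1.51 to 2.999 FPKM and is counted among the 46.

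Summed RNA of the immunosubunits exceeded that of the constitutive catalytic subunits in all 8 libraries, and Psmb8 made up most of it. Psmb8 (beta5i, chr17:34198195-34201454, in the MHC) had 129 and 113 FPKM in Cd69-/- term-diff cells, 118 and 83.0 in wild-type term-diff cells, 98.2 and 112 in Cd69-/- stem-like cells and 87.9 and 87.0 in wild-type stem-like cells. Its constitutive counterpart Psmb5 had 10.8 and 9.75 FPKM in Cd69-/- term-diff cells, 8.47 and 5.26 in wild-type term-diff cells, 7.49 and 6.54 in Cd69-/- stem-like cells and 7.28 and 5.80 in wild-type stem-like cells. The ratio of Psmb8 to Psmb5 was therefore between 11.6 and 17.2 in every library.

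Psmb9 (beta1i, chr17:34182099-34187330, also in the MHC) stood above Psmb6 by a smaller factor. It had 34.03 and 31.8 FPKM in Cd69-/- term-diff cells, 28.0 and 29.0 in wild-type term-diff cells, 35.7 and 38.6 in Cd69-/- stem-like cells and 29.2 and 36.6 in wild-type stem-like cells. Psmb6 had 17.5 and 19.2 FPKM in Cd69-/- term-diff cells, 16.8 and 18.1 in wild-type term-diff cells, 13.96 and 14.6 in Cd69-/- stem-like cells and 17.8 and 16.8 in wild-type stem-like cells. The ratio of Psmb9 to Psmb6 was 2.56 and 2.64 in Cd69-/- stem-like cells and 1.60 to 2.17 in the other 6 libraries, so the Cd69-/- stem-like libraries stood above all others. That difference was noticed in the values and has no test of its own.

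Psmb10 (beta2i, chr8:105935728-105938392) was about level with Psmb7. It had 14.5 and 11.6 FPKM in Cd69-/- term-diff cells, 13.8 and 13.1 in wild-type term-diff cells, 12.2 and 12.7 in Cd69-/- stem-like cells and 8.25 and 10.5 in wild-type stem-like cells. Psmb7 had 13.7 and 13.3 FPKM in Cd69-/- term-diff cells, 13.7 and 11.4 in wild-type term-diff cells, 11.4 and 12.1 in Cd69-/- stem-like cells and 11.6 and 6.36 in wild-type stem-like cells. The ratio ran from 0.713 to 1.65, and both ends of that range came from the wild-type stem-like libraries. Psmb5, Psmb6 and Psmb7 have processed pseudogenes in the annotation and Psme2 has a near copy, Psme2b, so reads of these genes could have been split between copies.

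**Figure D2:**
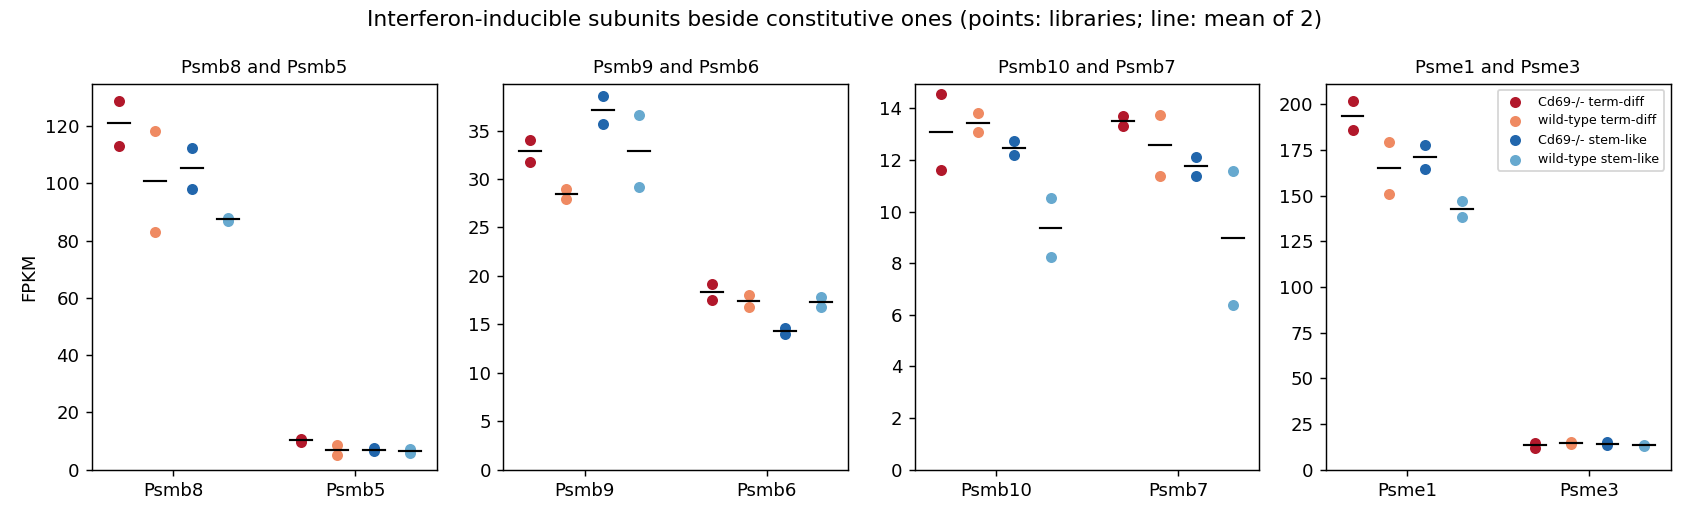
FPKM of the interferon-inducible genes Psmb8, Psmb9, Psmb10 and Psme1, each with a constitutive gene beside it, by group, with points for the 2 libraries and a line for their mean. Psme2 is not drawn. Psmb8 and Psme1 stand far above Psmb5 and Psme3 in every library, Psmb9 stands above Psmb6, and Psmb10 and Psmb7 overlap.

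Summed over the 6 catalytic genes, the immunosubunits Psmb8, Psmb9 and Psmb10 held 80.9% and 78.8% of the FPKM in Cd69-/- term-diff cells, 80.4% and 78.3% in wild-type term-diff cells, 81.6% and 83.1% in Cd69-/- stem-like cells and 77.4% and 82.2% in wild-type stem-like cells. The wild-type stem-like libraries alone spanned most of that range. The mean log2 ratio over the 3 pairs, each taken as a difference in log2(FPKM + 1) within a library, was 1.40 ± 0.13 in Cd69-/- term-diff cells, 1.49 ± 0.05 in wild-type term-diff cells, 1.71 ± 0.09 in Cd69-/- stem-like cells and 1.51 ± 0.41 in wild-type stem-like cells (SD, n = 2 each). With 2 libraries a group, an exact 2-sided permutation test of this ratio cannot go below p = 0.333, so these values are descriptions. Leaving out 1 wild-type stem-like library gave 1.22 or 1.80 for that group, a wider span than that between the 4 groups.

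The PA28 genes were also abundant in every group. Psme1 (chr14:55578494-55581527) had 202 and 186 FPKM in Cd69-/- term-diff cells, 179 and 151 in wild-type term-diff cells, 164 and 178 in Cd69-/- stem-like cells and 139 and 147 in wild-type stem-like cells. Psme2, its partner in the heptamer and its neighbour on chromosome 14 (55587440 to 55591101), had 63.6 and 60.4 FPKM in Cd69-/- term-diff cells, 55.0 and 42.6 in wild-type term-diff cells, 47.7 and 54.2 in Cd69-/- stem-like cells and 42.3 and 46.2 in wild-type stem-like cells. Psme3 stayed between 12.03 and 15.1 FPKM and Psme4 between 5.56 and 7.06 FPKM in all libraries.

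The first comparison asked which proteasome genes differ between the sorted subsets of Cd69-/- cells. Psmb4 and Psmb2, both non-catalytic beta subunits, passed the test as higher in term-diff cells, and no gene of the 46 passed it as lower. Psmb4 (chr3:94884324-94886958) had 23.1 and 25.5 FPKM in Cd69-/- term-diff cells, against 15.3 and 16.2 in Cd69-/- stem-like cells. Psmb2 (chr4:126677643-126709715) had 17.3 and 15.1 FPKM in Cd69-/- term-diff cells, against 8.31 and 11.4 in Cd69-/- stem-like cells. The groups did not overlap for either gene.

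On the log2(FPKM + 1) scale, which understates the change of low genes, the differences were 0.60 ± 0.13 for Psmb4 and 0.67 ± 0.15 for Psmb2 (standard error), with adjusted p = 0.0265 and 0.0309 in limma, Benjamini-Hochberg over all 9782 genes. The 2 called genes are 4.35% of the 46, against 9.45% of all genes called in this comparison, 3.88% higher and 5.56% lower. Psmb4 lost its call without Cd69-/- stem-like library 1 (adjusted p = 0.169) or 2 (0.0908) and without Cd69-/- term-diff library 1 (0.0772) or 2 (0.140). Psmb2 lost it without Cd69-/- stem-like library 1 (0.195) and without Cd69-/- term-diff library 1 (0.146) or 2 (0.0840), and the count of all called genes, 924, was 289, 413, 420 and 363 without Cd69-/- stem-like library 1, 2 and Cd69-/- term-diff library 1, 2. Both calls also ended when the filter on low values was dropped (0.0626 and 0.0899), and that of Psmb2 in a fit on only the groups compared (0.0660).

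The genes that did not pass the test lay mostly on the same side. Of the 46, 38 had a difference above 0, against 45.9% of all genes, and the median was 0.19, against -0.03 over all genes. Without Cd69-/- stem-like library 1 that median was 0.11, and without library 2 it was 0.29. The libraries did not overlap in 24 genes with higher and 3 with lower term-diff values, where the shares over all genes were 24.5% and 32.4%. Among the 3 lower were Psmg1, at -0.71 ± 0.29 (adjusted p = 0.177), and Psmd9, at -0.40 ± 0.17 (0.188). That of Psmg1 was the largest difference of the 46 in either direction. Both genes had few implied fragments per library, 4 to 23 for Psmg1 and 13 to 34 for Psmd9. All 7 alpha subunits had differences above 0, from 0.22 to 0.65, among them Psma7 with 39.5 and 46.7 FPKM in Cd69-/- term-diff cells, against 21.5 and 33.98 in Cd69-/- stem-like cells (adjusted p = 0.116). The 6 ATPases had differences of 0.17 to 0.41, and 10 of 11 non-ATPase subunits were above 0. Under median-of-ratios scaling, quantile normalization and limma-voom on the implied fragments, 39, 36 and 40 of the 46 were above 0. Their medians were then 0.22, 0.18 and 0.25. Rescaling each library to an equal FPKM sum, a scale that small RNA dominates, moved the median of all genes by -0.27. The median of the 46 was then -0.16, and 11 of the 46 were above 0. Relative to all genes the median of the 46 was 0.22 higher as deposited and 0.15 higher after that rescaling.

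Among the interferon-inducible genes no difference between the Cd69-/- subsets passed the test. Psmb8 differed by 0.20 ± 0.19 (adjusted p = 0.570), Psmb10 by 0.06 ± 0.15 (0.851), Psme1 by 0.18 ± 0.17 (0.561) and Psme2 by 0.28 ± 0.16 (0.313). Psmb9 alone of the 5 was on the other side, at -0.17 ± 0.14 (0.490), with no overlap between the libraries. Of the constitutive counterparts, Psmb5 differed by 0.49 ± 0.20 (0.175), Psmb6 by 0.34 ± 0.11 (0.104) and Psmb7 by 0.19 ± 0.23 (0.649), all with term-diff libraries above the stem-like ones. Psme3 (-0.08 ± 0.13) and Psme4 (-0.10 ± 0.12) were slightly below 0. The 95% interval of a member's difference reached 0.35 to either side in the median. That interval is not adjusted for the number of genes tested, and the adjusted threshold could miss larger changes. Psma7, at 0.65 (adjusted p = 0.116), and Psma5, at 0.54 (0.0964), were not called, so an uncalled gene is not shown to be unchanged.

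**Figure D3:**
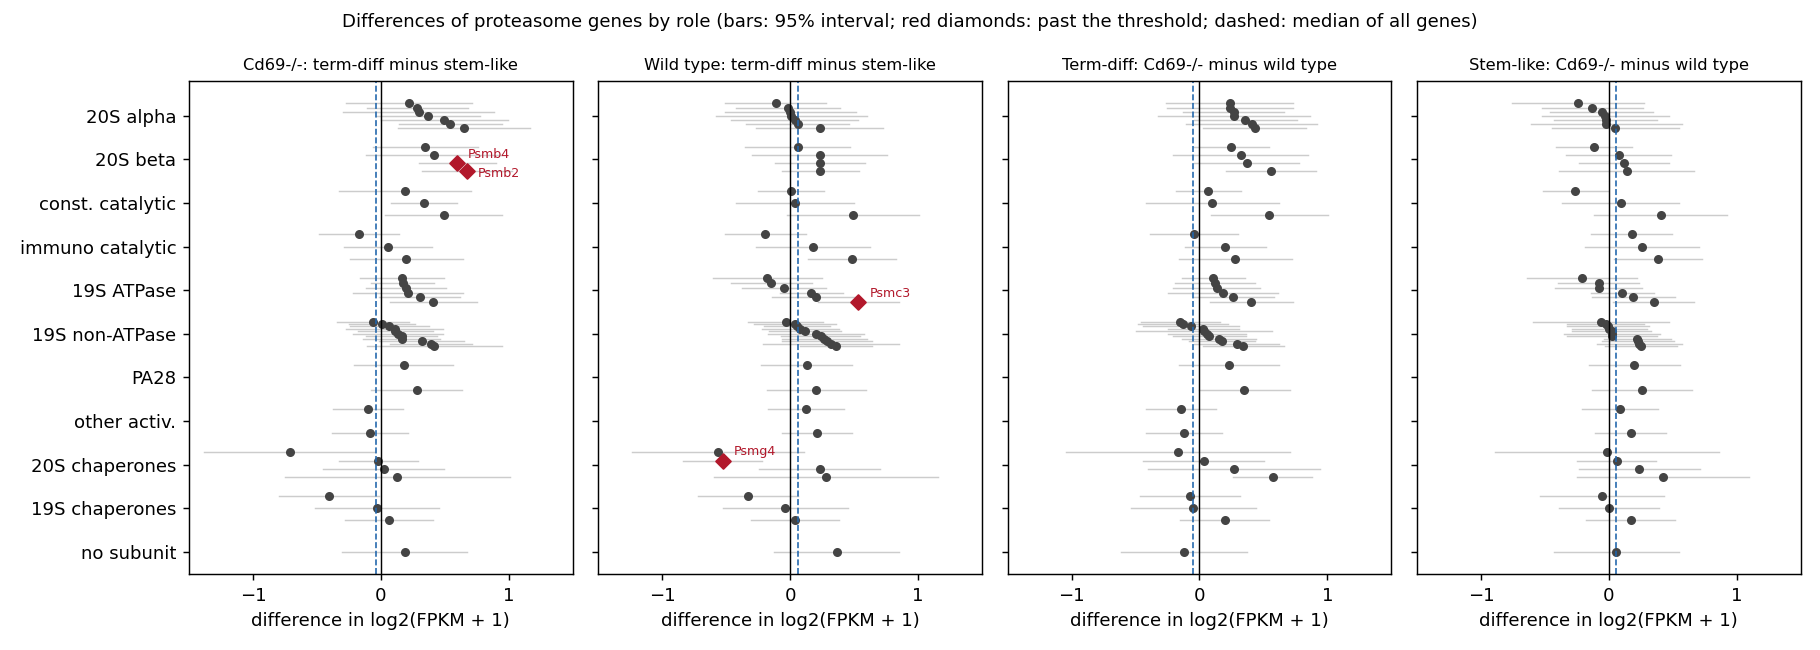
Differences in log2(FPKM + 1) of the 46 genes by role in the 4 comparisons, with 95% intervals as bars, red diamonds for adjusted p under 0.05 and a dashed line at the median of all genes. Psmb4 and Psmb2 in Cd69-/- cells and Psmc3 and Psmg4 in wild-type cells are past the threshold, and none is in the genotype comparisons. Rescaling to an equal FPKM sum turns the medians of the 46 below 0 in every panel but the one of wild-type subsets. Under median-of-ratios scaling, quantile normalization and voom, the medians of the Cd69-/- subsets and of the term-diff genotypes stay above 0.

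The same question in wild-type cells gave calls for Psmc3 and Psmg4, and not for Psmb4 or Psmb2. Psmc3 rose in term-diff cells and Psmg4 fell. Psmc3 (chr2:91054016-91059438), an ATPase of the cap, had 25.5 and 24.8 FPKM in wild-type term-diff cells, against 17.9 and 16.2 in wild-type stem-like cells. Psmg4 (chr13:34162977-34178172), a chaperone of the core particle, had 11.8 and 10.5 FPKM in wild-type term-diff cells, against 15.2 and 18.0 in wild-type stem-like cells. Neither gene's libraries overlapped between the subsets. Psmb4 and Psmb2 were also higher in wild-type term-diff cells, by 0.24 ± 0.13 and 0.23 ± 0.15 (adjusted p = 0.286 and 0.366 in limma). Between the Cd69-/- subsets Psmc3 differed by 0.30 ± 0.14 (0.218) and Psmg4 by -0.02 ± 0.13 (0.949).

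The difference was 0.53 ± 0.14 for Psmc3 and -0.53 ± 0.13 for Psmg4 on the log2(FPKM + 1) scale, each with adjusted p = 0.0380 in limma. The 2 called genes are 4.35% of the 46, against 13.1% of all genes, 7.24% higher and 5.83% lower. Psmc3 lost its call without wild-type stem-like library 1 (adjusted p = 0.0910) or 2 (0.145), wild-type term-diff library 1 (0.135) or 2 (0.124), or either Cd69-/- term-diff library (0.0558 each), which enter through the shared estimate of the spread. Psmg4 lost it without wild-type stem-like library 1 (0.0606) or 2 (0.159), wild-type term-diff library 1 (0.0789) or 2 (0.181), or either Cd69-/- stem-like library (0.0646 each), and in voom on the implied fragments (0.212). Dropping the filter on low values ended both calls (0.0857 and 0.0874), as did a fit on only the groups compared (0.0642 and 0.0890), and quantile normalization ended that of Psmc3 (0.0708). The count of all called genes, 1278, was 608, 766, 675 and 646 without wild-type stem-like library 1, 2 and wild-type term-diff library 1, 2.

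The rest of the 46 lay close to the other genes. In wild-type cells 35 had a difference above 0, against 57.4% of all genes, and the median was 0.12, against 0.06. Without wild-type stem-like library 2 that median was 0.065, and without wild-type term-diff library 1 it was 0.060. No overlap was seen in 17 genes with higher and 4 with lower term-diff values, where the shares over all genes were 33.4% and 21.8%. The alpha subunits had a median of 0.01 (-0.11 to 0.23) and the non-ATPase subunits 0.20 (-0.04 to 0.36). Under median-of-ratios scaling, under quantile normalization and in the equal-sum rescaling, the last of which moved the median of all genes by 0.14, the median of the 46 was 0.06, 0.01 and 0.27.

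Psmb10 came closest to the threshold among the immunoproteasome genes, at 0.48 ± 0.15 (adjusted p = 0.0733), with both wild-type term-diff libraries above both stem-like ones. Psmb8 differed by 0.18 ± 0.19 (0.601), Psme1 by 0.20 ± 0.17 (0.481) and Psme2 by 0.13 ± 0.16 (0.642). Psmb9 was again on the other side, at -0.19 ± 0.14 (0.404), without overlap. Psmb5 differed by 0.04 ± 0.20, Psmb6 by 0.01 ± 0.11, Psme3 by 0.12 ± 0.13 and Psme4 by 0.21 ± 0.12, none past the threshold. Psmb7 differed by 0.49 ± 0.23 (0.199), and without wild-type stem-like library 1 it passed the test at 0.88 (0.0203); that library held 11.6 FPKM and the other 6.36.

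The next comparison asked what the loss of Cd69 changed in term-diff cells. None of the 46 genes passed the limma test, against 0.194% of all genes, 0.112% higher and 0.0818% lower, and none did in voom on the implied fragments, against 3.47% of all genes in voom. At an unadjusted p under 0.05 there were 6 genes, all higher in Cd69-/- cells, where 15.1% of all genes had such a p. Psmg4 had the smallest p, with 15.7 and 18.5 FPKM in Cd69-/- term-diff cells, against 11.8 and 10.5 in wild-type term-diff cells, a difference of 0.57 ± 0.13 (adjusted p = 0.169). Psmb2 had 17.3 and 15.1 FPKM in Cd69-/- term-diff cells, against 11.02 and 10.2 in wild-type term-diff cells (0.56 ± 0.15, 0.198), and the ATPase Psmc4 had 18.3 and 15.6 FPKM in Cd69-/- term-diff cells, against 13.7 and 11.4 in wild-type term-diff cells (0.41 ± 0.14, 0.273). Psmb5 differed by 0.55 ± 0.20 (0.285). The 4 genes showed no overlap between the genotypes.

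Most of the 46 genes had higher means in Cd69-/- term-diff cells on the deposited scale. Their median difference was 0.19, against -0.05 over all genes; 36 were above 0, against 42.0% of all genes, and 24 stood without overlap above wild type, against 19.7% of all genes. The CD8 T cell markers lay on the same side: 7 of 8 had differences above 0, with a median of 0.50, and their sums were 1460 and 1300 FPKM in Cd69-/- term-diff cells, against 1049 and 970.1 in wild-type term-diff cells. None of the 8 passed the test, and their part in the proteasome values was not tested. Without wild-type term-diff library 2, the library with the smallest share of small RNA, the median was 0.11. The median of the 46 exceeded that of all genes by 0.24 as deposited. Under median-of-ratios scaling, quantile normalization and voom the excess was 0.24, 0.18 and 0.24, with 37, 35 and 39 of the 46 above 0. Rescaling to an equal sum, a scale that small RNA dominates, moved the median of all genes by -0.84. It left none of the 46 above 0, with a median of -0.82 and an excess over all genes of 0.07. Psme2 differed by 0.35 ± 0.16 (adjusted p = 0.340), Psmb8 by 0.28 ± 0.19 (0.509), Psme1 by 0.23 ± 0.17 (0.532), Psmb9 by 0.20 ± 0.14 (0.504) and Psmb10 by -0.04 ± 0.15 (0.909). Psmb6 (0.07 ± 0.11) and Psmb7 (0.10 ± 0.23) lay near 0, and Psme3 (-0.12 ± 0.13) and Psme4 (-0.14 ± 0.12) below it.

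In stem-like cells the genotypes also differed in none of the 46 genes by limma, against 0.153% of all genes, 0.0409% higher and 0.112% lower, and in none by voom, against 0.46% of all genes. An unadjusted p under 0.05 was reached by 2 higher genes and 1 lower gene, where 7.26% of all genes had one. Psmc3 had 19.6 and 24.6 FPKM in Cd69-/- stem-like cells, against 17.9 and 16.2 in wild-type stem-like cells (0.35 ± 0.14, adjusted p = 0.619). Psmb10 differed by 0.38 ± 0.15 (0.619), Psmb6 by -0.26 ± 0.11 (0.676) and Psmd7, a subunit of the lid that pairs with the deubiquitinase Psmd14, by 0.25 ± 0.12 (0.745). Neither genotype's libraries overlapped in these 4 genes.

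The 5 immunoproteasome genes all had higher means in Cd69-/- stem-like cells, where 62.5% of all genes had differences above 0, and the test called none. The differences were 0.38 for Psmb10, 0.26 ± 0.19 for Psmb8 (adjusted p = 0.825), 0.26 ± 0.17 for Psme1 (0.794), 0.20 ± 0.16 for Psme2 (0.837) and 0.18 ± 0.14 for Psmb9 (0.832). The libraries did not overlap in 4 of the 5, Psmb9 being the exception, while 26.3% of all genes stood without overlap above wild type here. All 13 genes of class I antigen processing described below also had differences above 0 in this comparison, as did 7 of 8 CD8 T cell markers. Psmb5 differed by 0.09 ± 0.20, Psmb7 by 0.41 ± 0.23, Psme3 by 0.09 ± 0.13 and Psme4 by 0.17 ± 0.12, none past the threshold. Over the 46 genes the median was 0.06, the same as over all genes. It was 0.14 and 0.025 without Cd69-/- stem-like library 1 and 2, and 0.12 and 0.019 without wild-type stem-like library 1 and 2. Quantile normalization gave -0.01 and the equal-sum rescaling -0.41, with a shift of all genes of -0.45. The myeloid sums given above were higher in the Cd69-/- stem-like libraries than in all others, and their part in these values was not tested.

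The interaction compared the genotype difference in term-diff cells with that in stem-like cells. None of the 46 genes passed, against 0.0307% of all genes by limma, 0.0204% higher and 0.0102% lower, and voom called no gene at all. Only Psmg4 had an unadjusted p under 0.05, where 9.09% of all genes did. Its difference between the genotypes was 0.51 ± 0.19 larger in term-diff than in stem-like cells (adjusted p = 0.542). Psma7 (0.65 ± 0.32), Psmb2 (0.44 ± 0.22) and Psmb6 (0.33 ± 0.16) followed, with adjusted p = 0.554, 0.554 and 0.550. For the immunoproteasome genes the interaction was -0.43 ± 0.21 for Psmb10 (0.554), 0.15 ± 0.22 for Psme2, 0.02 ± 0.19 for Psmb9, 0.02 ± 0.27 for Psmb8 and -0.03 ± 0.24 for Psme1. Psmb5 (0.45 ± 0.28), Psmb7 (-0.30 ± 0.32), Psme3 (-0.21 ± 0.18) and Psme4 (-0.31 ± 0.17) also missed the threshold. The calls in one genotype and not the other are therefore not shown to differ between genotypes.

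Summed levels showed how far 2 libraries of a group could differ. All 46 genes summed to 1157 and 1112 FPKM in Cd69-/- term-diff cells, 1030 and 906 in wild-type term-diff cells, 912 and 1021 in Cd69-/- stem-like cells and 911 and 867 in wild-type stem-like cells. The alpha ring summed to 189 and 198 FPKM in Cd69-/- term-diff cells, 168 and 143 in wild-type term-diff cells, 124 and 167 in Cd69-/- stem-like cells and 178 and 133 in wild-type stem-like cells, so the libraries of the stem-like groups lay nearly as far apart as the highest and lowest group. The 11 non-ATPase subunits varied less, with 212 and 199.5 FPKM in Cd69-/- term-diff cells, 190.5 and 192 in wild-type term-diff cells, 181 and 192 in Cd69-/- stem-like cells and 167 and 176 in wild-type stem-like cells.

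**Figure D4:**
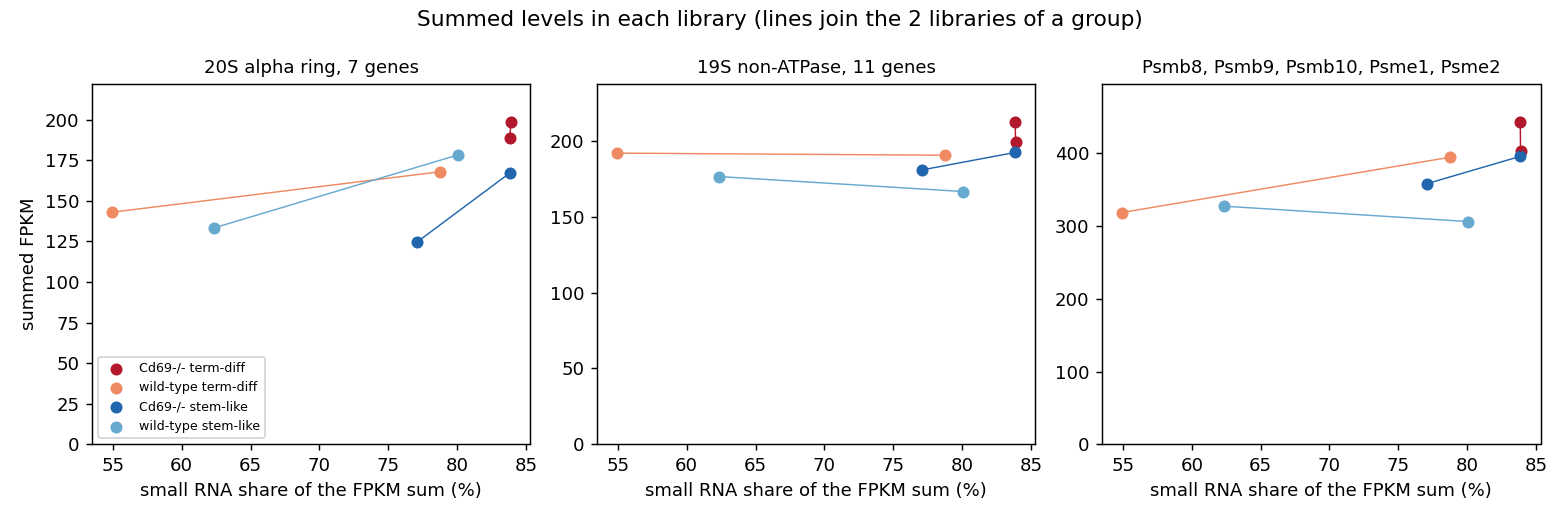
Summed FPKM of 3 sets of proteasome genes against the share of the FPKM sum held by small RNA (%), with 1 point per library and a line joining the libraries of a group. Alpha ring sums are higher in the library with more small RNA in wild-type term-diff, Cd69-/- stem-like and wild-type stem-like cells, and the non-ATPase sums do not show this in the wild-type groups.

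Where the libraries of a group differed clearly in small-RNA share, the summed alpha ring was higher in the one with more. This pattern was not tested. All 7 alpha genes were higher in wild-type stem-like library 1 (80.1% small RNA) than in library 2 (62.4%), against 36.44% of all genes. In wild-type term-diff cells 6 of 7 were higher in library 1 (78.8%) than in library 2 (54.9%), against 41.15% of all genes. None was higher in Cd69-/- stem-like library 1 (77.1%) than in library 2 (83.8%), against 47.06% of all genes. In Cd69-/- term-diff cells, where both libraries had a share of 83.8% to 83.9%, 2 of 7 were higher in library 1, against 70.16%. Of the 11 non-ATPase subunits, 4, 5, 3 and 8 were higher in library 1, in the same order of groups. The part of the small-RNA share in the differences between groups was not tested. Without both wild-type library 2 samples, an alternative added after the values were seen, Psmb4 kept its call (adjusted p = 0.0359), while those of Psmb2 (0.0662), Psmc3 (0.263) and Psmg4 (0.371) ended. All 4 calls ended when each library was rescaled to an equal FPKM sum, a scale that small RNA dominates (adjusted p = 0.997 for Psmb4 and Psmb2, and 1 for Psmc3 and Psmg4).

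Genes that work with the proteasome were looked at beside it. Of 28 genes for its maturation, regulation and substrate delivery, none passed the limma test between the Cd69-/- subsets, where 9.45% of all genes did, or between the wild-type subsets, where 13.1% did. None passed in the genotype comparisons and the interaction either, where at most 0.194% of all genes did. Among the 28 are Pomp, the maturation factor of the core, and Nfe2l1, whose product NRF1 activates proteasome genes. Pomp had 33.0 and 32.2 FPKM in Cd69-/- term-diff cells, against 17.3 and 26.7 in Cd69-/- stem-like cells (0.58 ± 0.21, adjusted p = 0.135), and voom called it (0.0384). Pomp differed by -0.08 ± 0.21 between the wild-type subsets, by 0.45 ± 0.21 between the genotypes in term-diff and by -0.21 ± 0.21 in stem-like cells, none past the threshold. Nfe2l1 lay between 8.06 and 11.5 FPKM in all libraries, with differences of -0.19 between the Cd69-/- subsets, -0.07 between the wild-type subsets, and -0.13 and -0.01 between the genotypes in term-diff and stem-like cells. The interaction was 0.66 ± 0.30 for Pomp (adjusted p = 0.550) and -0.12 ± 0.22 for Nfe2l1 (0.857).

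Class I antigen processing was represented by 13 genes. Between the wild-type subsets 3 of them passed as higher in term-diff cells and none as lower, against 7.24% and 5.83% of all genes: Pdia3 (0.48, adjusted p = 0.0359), Canx (0.47, 0.0487) and Tapbpl (0.42, 0.0402). They fold class I molecules or edit their peptides, and were named after their values were seen. These 3 calls were not followed under the alternatives or without single libraries. Tap1 and Tap2, the transporter that brings proteasome products into the endoplasmic reticulum, did not pass in any comparison. Tap1 differed by 0.16 ± 0.14 between the wild-type subsets (adjusted p = 0.510) and by -0.11 ± 0.14 between the Cd69-/- subsets (0.678), and Tap2 by 0.39 ± 0.15 (0.146) and 0.08 ± 0.15 (0.778). Between the genotypes Tap1 differed by -0.12 ± 0.14 in term-diff and 0.15 ± 0.14 in stem-like cells, and Tap2 by -0.04 ± 0.15 and 0.26 ± 0.15. The interaction was -0.27 ± 0.20 for Tap1 and -0.30 ± 0.22 for Tap2. No class I gene passed between the genotypes or between the Cd69-/- subsets.

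Of 7 genes listed for the interferon pathway, 6 passed the filter. Among these 6, Ifngr1, the ligand-binding receptor chain, and Irf8, a transcription factor, rose in term-diff cells of both genotypes. Of all genes, 7.24% rose between the wild-type subsets and 3.88% between the Cd69-/- subsets. Ifngr2 stayed below the filter and was not tested. It had 0 to 0.0588 FPKM in the term-diff libraries, against 0.124 to 0.536 in the stem-like ones. Irf8 had 39.0 and 34.1 FPKM in Cd69-/- term-diff cells, against 17.3 and 19.02 in Cd69-/- stem-like cells (0.97 ± 0.12, adjusted p = 0.00268), and 54.3 and 58.2 FPKM in wild-type term-diff cells, against 32.6 and 34.4 in wild-type stem-like cells (0.73 ± 0.12, 0.00770). Ifngr1 rose by 1.37 ± 0.20 between the wild-type subsets (0.00360) and by 0.79 ± 0.20 between the Cd69-/- subsets (0.0445), a call that ended without any 1 of the 4 Cd69-/- libraries (0.0946 to 0.197) and without either wild-type term-diff library (0.0596 and 0.0594). Irf1, a transcription factor that activates Psmb8, Psmb9 and other interferon-inducible genes, passed in no comparison: it differed by 0.19 ± 0.13 between the Cd69-/- subsets (0.418), by 0.10 ± 0.13 between the wild-type subsets (0.662), and by 0.15 ± 0.13 (0.616) and 0.06 ± 0.13 (0.949) between the genotypes in term-diff and stem-like cells. Its interaction was 0.09 ± 0.19 (0.875).

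Genes of dividing cells differed between the wild-type subsets as well. Mki67 (1.09), Mcm5 (0.98), Stmn1 (0.92) and Birc5 (0.69) rose in term-diff cells, 4 of 8 on the list, and all 8 had differences above 0; of all genes 7.24% rose there and 57.4% were above 0. Between the Cd69-/- subsets all 8 were above 0 with a median of 0.41, and none passed the test. Stmn1 lost its call without wild-type stem-like library 1 (adjusted p = 0.0533) or 2 (0.0662) and wild-type term-diff library 1 (0.0577) or 2 (0.0728), and Birc5 without wild-type stem-like library 1 (0.0919) or 2 (0.110) and wild-type term-diff library 1 (0.138). Without both wild-type library 2 samples none of the 4 passed (0.0802 for Mki67, 0.137 for Mcm5, 0.181 for Stmn1 and 0.0912 for Birc5), nor did Irf8 between the wild-type subsets (0.101). The part of cell division in the differences of Psmc3, Psmg4, Psmb4 and Psmb2 was not tested.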

How the data were processed

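RNA of sorted AH1 tetramer-positive CD8+ T cells was made into libraries with a stranded total RNA kit for low input and read from one end, per the labels' protocols. The deposited values are FPKM per gene, in tables of Cufflinks form, which the authors made with Cufflinks 2.2.1 on mm10, with TopHat 1.3.2, Bowtie2 2.3.4 and bcl2fastq 2.20 also named, per the submitters' processing notes. Which annotation and strand setting were used, and which total FPKM refers to, are not given in the sources used here. Of the 46 genes, 13 overlap a gene on the other strand (Psmb8, Psmb10, Psmb7, Psme1 and Psma4 among them) and 4 have named copies. Psmb5, Psmb7, Psmc5, Psmd1, Psmd12, Psmd13, Psmd14 and Psmg3 overlap a gene on the same strand. The values of all these genes are uncertain where reads could be shared.

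FPKM values were taken as deposited, and 3 of 23746 rows were left out for a failed status. Rows that reached 1 FPKM in 2 or more libraries were tested on log2(FPKM + 1) with limma 3.58.1 (empirical Bayes with a trend) in R 4.3.3, on 4 group means with 4 residual degrees of freedom, 2-sided, with Benjamini-Hochberg adjustment over all 9782 rows and a threshold of 0.05. The fit was tested on simulated data, whose setting and outcome are not given here, so nothing about the calls is concluded from that test. The deposited FPKM are not counts, so fragments implied by the Cufflinks confidence limits were used for depth and for 1 alternative, limma-voom. Only 63.6% to 65.5% of low rows came out within 0.05 of a whole number, so these fragments are approximate. Depth limits the precision of low genes, and no interval of single libraries is given.

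The named genes were the immunoproteasome genes with Psmb5, Psmb6, Psmb7, Psme3 and Psme4 in every comparison; called genes (up to 8 in each direction for subsets) or, where fewer than 4 were called between genotypes or in the interaction, the 4 with the smallest p; the highest and lowest of each role; genes at the edge of the threshold; called related genes (up to 6 in each direction); and Tap1, Tap2, Irf1, Nfe2l1 and Pomp. Another gene that this rule names is not reported here. Members, lists and tests were chosen with earlier results of these data known. Alternatives covered pseudocounts of 0.1 and 5, other filters, 3 other scalings, limma without a trend, limma-voom, a replicate block, only the groups compared, and leaving out each library. Python 3.11.15, pandas 2.3.3 and matplotlib 3.10.9 were used for tables and figures.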

Additional observations from a re-analysis of the deposited data

How the results depend on the processing

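Results were recomputed under 11 alternatives, without both wild-type replicate 2 libraries (1 more alternative, chosen after seeing the data), and without each of the 8 libraries. Of 2080 results for named genes, 124 changed sign, all of them uncalled in the first place and 46 of them under equal-sum rescaling; 83 of 300 calls were lost and 2 gained. The pseudocounts and the filter of 5 FPKM changed no call of a named gene.

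Genes of the 46 called between the subsets numbered 2 each in wild-type and Cd69-/- cells. They were 0 and 0 with no filter and with equal-sum rescaling, 0 and 1 with only the groups compared, 1 and 5 in voom, 1 in wild-type cells under quantile normalization, and 0 and 1 without both wild-type replicate 2 libraries. No label says what the replicate numbers share, and deviations of same-numbered libraries correlated between -0.297 and 0.153, so the numbers were not taken as pairs. The highest value, 0.153, was between the wild-type subsets, whose second libraries also had the lowest small-RNA shares. Whether these libraries shared a source was not tested. The replicate block ended the calls of Psmc3 (adjusted p = 0.0667), Psmg4 (0.0576) and Psmb2 (0.0518) and so gave 0 and 1 genes of the 46, and 8 genes in all between the genotypes in stem-like and 6 in term-diff cells. Without each library in turn the 46 had 0 to 1 call in wild-type cells, 0 to 2 in Cd69-/- cells and 0 in the other comparisons.

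Medians of the 46 are given for the wild-type subsets, the Cd69-/- subsets, the genotypes in stem-like and in term-diff cells, and the interaction. Equal-sum rescaling gave 0.27, -0.16, -0.41, -0.82 and -0.37, and voom 0.017, 0.25, 0.0041, 0.24 and 0.20. Median-of-ratios scaling moved the first to 0.057 and the interaction to 0.16, and quantile normalization the first to 0.0074, stem-like to -0.0079 and the interaction to 0.16. The filter of 5 FPKM moved the interaction to 0.15, and a pseudocount of 5 moved term-diff to 0.13, which was 0.11 without both wild-type replicate 2 libraries. Leaving out libraries gave 0.060 to 0.17, 0.11 to 0.29, 0.019 to 0.14, 0.11 to 0.19 and 0.026 to 0.22.

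Genes called in all, 1278, 924, 15, 19 and 3 in that order of comparisons, were 152, 70, 54, 61 and 51 with equal-sum rescaling. Voom gave 1634 for the Cd69-/- subsets, 45 and 339 for the genotypes and 0 for the interaction. No filter gave 752, 545, 4 and 11 for the first 4, and only the groups compared 756 for the wild-type subsets. The filter of 5 FPKM gave 9 and 3 for the genotypes, a pseudocount of 0.1 gave 5 in stem-like cells, a pseudocount of 5 gave 8 for the interaction, and quantile normalization gave 9 in term-diff cells. Without both wild-type replicate 2 libraries there were 325 for the wild-type subsets, 24 in stem-like cells and 18 for the interaction. Leaving out libraries gave 608 to 1099, 289 to 888, 4 to 16, 3 to 21 and 2 to 11. The causes were not tested.

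The log2 ratio of immunosubunits to constitutive ones was 1.56 in wild-type term-diff cells with a pseudocount of 0.1. With a pseudocount of 5 it was 1.23 in Cd69-/- term-diff, 1.27 in wild-type term-diff and 1.46 in Cd69-/- stem-like cells. Leaving out libraries gave 1.31 to 1.49 in Cd69-/- term-diff, 1.46 to 1.53 in wild-type term-diff, 1.64 to 1.77 in Cd69-/- stem-like and 1.22 to 1.80 in wild-type stem-like cells.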
